A study of Mus musculus with 17 samples.

Results

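The genes described here are 8 genes of cholesterol synthesis and its feedback control, *Hmgcs1*, *Idi1*, *Fdps*, *Fdft1*, *Sqle*, *Lss*, *Cyp51* and *Insig1*, among 21848 genes in the expression matrices. They were chosen by name as a pathway, with earlier results of these data known. None of the 8 takes up cholesterol from outside the cell, and genes of uptake are given only as a list beside them. The 8 genes passed the filter on low counts in all comparisons, and the time course tested 10270 genes.

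Cholesterol is made from acetyl-CoA through the mevalonate pathway, which also yields the isoprenoids that anchor small GTPases to membranes. When sterols in the endoplasmic reticulum run low, the escort protein SCAP carries the transcription factor SREBP2 to the Golgi, where it is cut and released to switch on the genes of the pathway. INSIG proteins hold SCAP back when sterols are plentiful. In germinal centre (GC) B cells, which divide rapidly in the dark zone after help from T cells, new membrane has to be built at each division.

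The cells came from lymph nodes of mice that had been primed with ovalbumin (OVA), given B cells with the B1-8hi receptor, which binds the hapten NP, and immunized with NP-OVA. A minority of the transferred cells carried the receptor DEC-205, encoded by *Ly75*, and a division tracker, H2B-mCherry under a tetracycline promoter driven by Vav-tTA. The rest were *Ly75*-/-. The paper describes the cells sequenced in the time course as DEC-205-bearing GC B cells. At 7 days after immunization, treated mice received anti-DEC-OVA, an antibody that delivers OVA to DEC-205-bearing B cells, which then obtain T cell help and divide repeatedly. In the time course, 9 mice were taken at 0 h, 15 at 48 h (6 untreated, 9 treated) and 15 at 72 h (8 untreated, 7 treated), in 2 experiments with 25 and 14 mice. In another experiment, GC B cells with a CDK2 activity reporter, DHB-tdTomato knocked into Rosa26, were taken 72 h after anti-DEC-OVA and sorted by imaging into CDK2hi cells, with the reporter in the cytoplasm, and CDK2low cells, with the reporter in the nucleus. Of 9 mice listed for this sort, 7 were compared, since the hashtags of the other 2 held only 51 to 798 UMIs in a library. The 7 mice gave cells to both fractions, and all of them had been treated. An earlier experiment with 3 mice each at 7 days and at 10 days with and without treatment was used apart. Its treated cells had been sorted for low mCherry.

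The unit is CPM, the unique molecular identifiers (UMIs) of a gene in a mouse scaled to the same total of UMIs in every mouse. Between 292 and 1045 cells per mouse were kept in the time course, with 1984426 to 13373185 UMIs per mouse. At 48 h, treated mice averaged 15100 UMIs per cell against 8420 in untreated mice, and G0–G1 cells made up 20.8% ± 2.7 (SD, n = 9) against 51.9% ± 4.32 (SD, n = 6) of the cells. At 72 h the shares were 47.9% ± 6.87 (SD, n = 7) and 48.9% ± 6.1 (SD, n = 8). The filters on cells removed 1.6% to 3.29% of cells in the larger experiment and 21.0% to 28.5% in the smaller. GC B cell markers such as *Bcl6* (205 to 355 CPM) and *S1pr2* (142 to 221 CPM) were detected in all 39 mice, and 6 macrophage and dendritic cell markers summed to at most 30.9 CPM. The 6 T cell markers found summed to 52.2 to 157 CPM. Among them *Cd3e*, part of the T cell receptor complex, was at 0 in 13 mice and at most 4.04 CPM, while *Cd2*, which mouse B cells also express, had 47.8 to 155 CPM and was at 0 in no mouse. In these sums over cells, fewer cells of a kind and less RNA of a gene per cell cannot be told apart.

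The start sites of 5 of the 8 genes had an entry in the RefSeq promoter table (GRCm38.p6), and *Sqle*, *Fdft1* and *Fdps* are named only. The bases before the start are shown for these 5 genes because all 8 genes were higher in treated mice at 72 h. Capitals mark motifs searched on both strands: the sterol regulatory element TCACNCCAC, the NF-Y motif CCAAT, read as ATTGG from the other strand, the Sp1 motif GGGCGG, read likewise as CCGCCC, and the E-box CACGTG. The stretches were placed on GRCm39 by exact match, at chr13:120151637-120151886 (plus strand) for *Hmgcs1*, chr5:28276160-28276314 (plus) for *Insig1*, chr13:8935612-8935641 (plus) for *Idi1*, chr10:76367365-76367394 (plus) for *Lss* and chr5:4154709-4154738 (minus) for *Cyp51*. For *Idi1*, *Lss* and *Cyp51* only 30 bases with an NF-Y motif are shown. Their 250 bases before the RefSeq start overlap the genes as annotated in GENCODE M39. The 30 bases shown also lie inside those annotated genes. For *Insig1*, bases 250 to 96 before the RefSeq start are shown, since its annotated gene begins at the next base.
Hmgcs1: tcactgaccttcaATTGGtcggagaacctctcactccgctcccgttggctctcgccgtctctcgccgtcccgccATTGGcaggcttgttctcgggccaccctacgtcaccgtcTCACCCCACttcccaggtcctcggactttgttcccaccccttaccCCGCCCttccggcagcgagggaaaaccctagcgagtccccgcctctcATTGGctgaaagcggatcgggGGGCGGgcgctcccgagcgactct
Insig1: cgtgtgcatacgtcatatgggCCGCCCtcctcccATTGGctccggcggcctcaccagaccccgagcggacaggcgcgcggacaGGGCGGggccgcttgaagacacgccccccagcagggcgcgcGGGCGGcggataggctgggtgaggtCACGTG
Idi1: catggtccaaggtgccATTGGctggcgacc
Lss: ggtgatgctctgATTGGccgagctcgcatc
Cyp51: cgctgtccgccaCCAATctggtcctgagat

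Within 250 bases before the start, all 5 genes held both an NF-Y and an Sp1 motif, which 11% of 32841 promoters held. The sterol regulatory element was found in *Hmgcs1*, 137 to 129 bases before the start, and in 1.05% of all promoters. *Insig1* held the E-box 101 to 96 bases before the start, as did 6.02% of all promoters. A further motif reported for SREBP, TCANNTGA, was in none of the 5 and in 7.09% of all promoters. These matches are letters in a window and do not show binding.

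At 72 h after anti-DEC-OVA, all 8 genes were higher in treated than in untreated mice, by 1.26-fold to 1.66-fold, where 4.9% of all genes tested were called higher. The median log2 fold change of the 8 genes was 0.60, against 0.00 over all genes. Their summed level was 724 ± 79.2 CPM (SD, n = 7) in treated and 494 ± 68.1 CPM (SD, n = 8) in untreated mice. The genes are taken in the order of the pathway.

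*Hmgcs1*, whose enzyme condenses acetyl-CoA and acetoacetyl-CoA to HMG-CoA at the entry of the pathway, lay between 58.9 and 102 CPM (median 71.2) in untreated and between 89.8 and 149 CPM (median 124) in treated mice at 72 h. The groups overlapped, with 5 of 7 treated mice above the highest untreated mouse. The log2 fold change was 0.66 (SE 0.0855, adjusted p = 8.54e-07, edgeR quasi-likelihood test). *Idi1*, which interconverts the 2 isoprene units that are joined downstream, showed the smallest difference of the 8. It lay between 62.2 and 108 CPM (median 77.9) in untreated and between 90.0 and 134 CPM (median 107) in treated mice, with 2 of 7 treated mice above all untreated mice. Its log2 fold change was 0.34 (SE 0.0951, adjusted p = 0.0191, edgeR), and the call held in 7 of 11 alternatives (0.21 to 0.50, adjusted p up to 0.412). It was lost in either experiment alone, without a term for the experiment and with B1-8hi pairing only.

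*Fdps*, whose product farnesyl pyrophosphate stands where the sterol and prenyl branches part, spanned 92.2 to 139 CPM (median 120) without and 132 to 214 CPM (median 181) with treatment. All but 1 of the 7 treated mice exceeded every untreated mouse, and the log2 fold change was 0.62 (SE 0.1, adjusted p = 4.04e-05, edgeR). *Fdft1*, squalene synthase, commits farnesyl units to sterols. Its level was 27.0 to 42.7 CPM (median 35.9) in untreated and 32.1 to 62.2 CPM (median 52.3) in treated mice, with a log2 fold change of 0.51 (SE 0.11, adjusted p = 0.002, edgeR).

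*Sqle*, the oxygen-dependent squalene epoxidase and a rate-limiting step of the sterol branch, separated the groups at 72 h. The 8 untreated mice had 37.0 to 50.8 CPM (median 41.3) and the 7 treated mice 53.2 to 73.6 CPM (median 67.5), with a log2 fold change of 0.60 (SE 0.0859, adjusted p = 4.8e-06, edgeR). *Lss* closes the ring to lanosterol and was the gene with the fewest UMIs. It had 7.03 to 18.4 CPM (median 12.7) without and 16.3 to 29.7 CPM (median 21.3) with treatment, and the largest fitted difference, 0.73 on the log2 scale (SE 0.156, adjusted p = 0.00168, edgeR). *Cyp51*, which removes a methyl group from lanosterol, also separated the groups, with 66.9 to 98.1 CPM (median 87.1) against 105 to 136 CPM (median 125) and a log2 fold change of 0.50 (SE 0.0759, adjusted p = 1.81e-05, edgeR). *Insig1*, the feedback inhibitor that is itself a target of SREBP, had 28.6 to 45.1 CPM (median 38.5) in untreated and 41.4 to 63.8 CPM (median 55.5) in treated mice. It rose by 0.59 (SE 0.0958, adjusted p = 4.33e-05, edgeR), so that the inhibitor and the enzymes differed in the same direction.

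**Figure D1:**
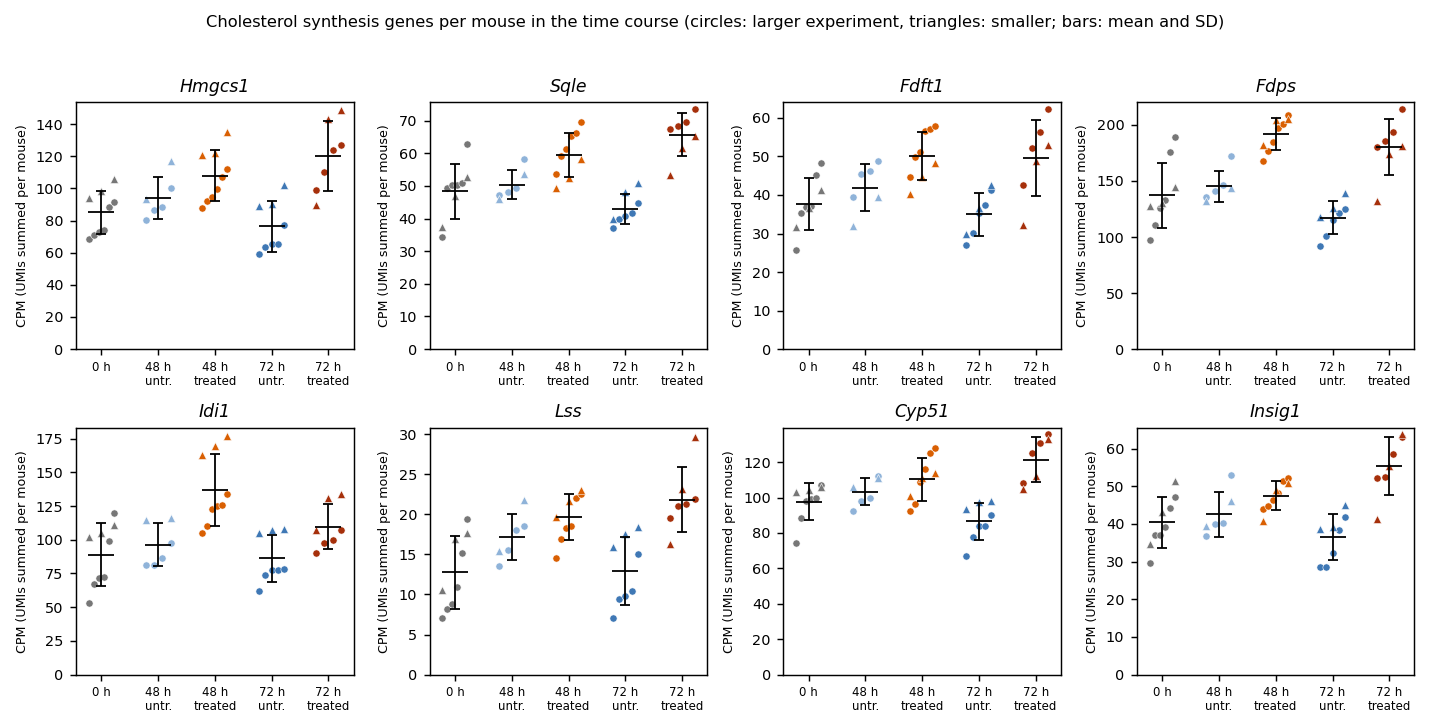
CPM of each of the 8 genes in every mouse of the time course, by group (horizontal axis: 0 h, 48 h and 72 h, untreated and treated; vertical axis: CPM from UMIs summed per mouse, from 0). Circles are mice of the larger and triangles mice of the smaller experiment, and black bars show mean and SD; at 72 h the treated mice lie above all untreated mice for *Sqle* and *Cyp51*, while at 48 h the groups overlap for all 8 genes.

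In the larger experiment at 72 h, the treated and untreated mice did not overlap for any of the 8 genes. How many of all genes were without overlap there was not counted, while 4.53% were called higher. The log2 fold changes of the 8 genes in it ranged from 0.42 (*Idi1*) to 1.03 (*Lss*). In the smaller experiment alone they ranged from 0.21 to 0.44, all in the same direction, and 0 of the 8 genes passed the adjusted threshold in edgeR (7 at an unadjusted p under 0.05), where 0.213% of all genes passed. DESeq2 was not run on the smaller experiment alone, and the difference between the experiments was not tested.

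At 48 h, 6 of the 8 genes were higher in treated than in untreated mice, where 24.8% of all genes tested were called higher and 47.3% were called in either direction. The median log2 fold change of the 8 genes was 0.28, against 0.00 over all genes. With library size only, 5 of the 8 passed, without *Insig1*, and 18.4% of all genes were called higher. *Idi1* showed the largest difference and lay between 81.0 and 116 CPM (median 92.3) in 6 untreated and between 105 and 177 CPM (median 126) in 9 treated mice. Its groups overlapped over both experiments but not within either one, and the log2 fold change was 0.56 (SE 0.0907, adjusted p = 2.7e-06, edgeR). *Fdps* followed, with 132 to 172 CPM (median 142) and 168 to 209 CPM (median 197), and a log2 fold change of 0.46 (SE 0.0981, adjusted p = 0.000154, edgeR). For *Fdps*, 8 of 9 treated mice exceeded the highest untreated mouse.

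The other genes differed less at 48 h. *Fdft1* rose by 0.32 (adjusted p = 0.00902, edgeR) from 41.9 ± 6.14 CPM (SD, n = 6) to 50.1 ± 6.27 CPM (SD, n = 9), and *Sqle* by 0.30 (adjusted p = 0.00247) from 50.4 ± 4.55 to 59.4 ± 6.79 CPM. *Hmgcs1* rose by 0.25 (adjusted p = 0.00983) from 94.2 ± 13 to 108 ± 15.9 CPM and *Insig1* by 0.22 (adjusted p = 0.0373) from 42.6 ± 5.97 to 47.5 ± 3.82 CPM, with no treated mouse above the highest untreated one for *Insig1*. The call of *Insig1* held in 6 of 11 alternatives (0.07 to 0.31, adjusted p up to 0.59) and that of *Hmgcs1* in 7 of 11 (0.18 to 0.33, adjusted p up to 0.127). That of *Fdft1* held in 7 of 11 (0.22 to 0.45, adjusted p up to 0.116) and that of *Sqle* in 9 of 11 (0.17 to 0.36, adjusted p up to 0.357). *Lss* (17.2 ± 2.92 and 19.7 ± 2.89 CPM, log2 fold change 0.26, adjusted p = 0.128) and *Cyp51* (103 ± 7.7 and 110 ± 12.1 CPM, log2 fold change 0.15, adjusted p = 0.0784) did not pass. Fewer of the 8 and fewer of all genes passed in narrower sets. The larger experiment gave 3 of the 8 (18.2% of all genes called higher), the smaller 2 (10.7%), and cells with the B1-8hi pairing of immunoglobulin chains 2 (*Fdps* and *Idi1*, with 16.7%).

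Per cell, the difference at 48 h was of another size, since CPM are relative to a total that was itself higher. *Hmgcs1* gave 1.62 UMIs per cell in treated and 0.785 in untreated mice at 48 h, *Fdps* 2.89 and 1.23, *Idi1* 2.04 and 0.805, and *Cyp51* 1.66 and 0.867. At 72 h, where the UMIs per cell were 8580 and 8170 on average, *Fdps* gave 1.56 and 0.952 UMIs per cell and *Cyp51* 1.05 and 0.702. These values per cell are given without a test, and differences in the mix of cells, capture and RNA content cannot be told apart in them.

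The summed level of the 8 genes at 48 h was 724 ± 61 CPM (SD, n = 9) in treated and 591 ± 37.8 CPM (SD, n = 6) in untreated mice, so that the means of treated mice were alike at both times and that of untreated mice was higher at 48 h than the 494 CPM at 72 h. The sums were not tested. The treatment effects at the 2 times were then compared with each other for each gene. The effect was smaller at 48 h than at 72 h for 4 of the 8 genes, where 14.4% of all genes were called lower. The difference of effects on the log2 scale was -0.40 for *Hmgcs1* (SE 0.118, adjusted p = 0.00784), -0.34 for *Cyp51* (SE 0.105, adjusted p = 0.0112), -0.37 for *Insig1* (SE 0.132, adjusted p = 0.0299) and -0.31 for *Sqle* (SE 0.118, adjusted p = 0.0428), all by edgeR. For *Idi1* the estimate had the opposite sign, 0.23 (SE 0.131, adjusted p = 0.192), and for *Fdft1*, *Fdps* and *Lss* it lay between -0.16 and -0.48 without passing. In the smaller experiment alone only *Idi1* passed, with a larger effect at 48 h (0.42, adjusted p = 0.0293), and with no term for the experiment 0 of the 8 passed in edgeR, with 4 at an unadjusted p under 0.05.

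Among treated mice, *Idi1* was higher at 48 h than at 72 h (137 ± 26.4 against 110 ± 16.7 CPM, log2 fold change 0.42, SE 0.0876, adjusted p = 9.68e-05, edgeR). It was the only one of the 8 to pass, where 24.8% of all genes were called higher and 48.9% in either direction. The estimates of the other 7 lay between -0.15 and 0.16, and their 95% intervals together reached from -0.32 to 0.35. Against the 0 h mice, all 8 genes were higher in treated mice at 48 h (26.0% of all genes called higher), from 0.23 for *Cyp51* to 0.66 for *Idi1*. In untreated mice 0 of the 8 passed at 48 h against 0 h (0.136% of all genes called) and 0 at 72 h against 0 h (3.95% called), with estimates between 0.03 and 0.36 and between -0.06 and -0.24. DESeq2 also called 0 in both untreated comparisons, and at an unadjusted p under 0.05 edgeR gave 1 of the 8 at 48 h and 4 at 72 h. The comparisons with 0 h use the same 9 mice, so that they are not independent of each other.

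Untreated mice showed how the 8 genes vary over the cell cycle. In paired sums of 23 untreated mice, all 8 genes were higher in G2–M than in G0–G1 cells (34.1% of genes called higher), with log2 fold changes from 0.63 for *Cyp51* to 1.18 for *Idi1*. All 8 were also higher in S than in G0–G1 cells (36.8% called higher), from 0.30 for *Hmgcs1* to 1.32 for *Idi1*. *Hmgcs1* stood at 0.30 in S and 0.93 in G2–M cells and *Sqle* at 0.47 and 0.91, whereas *Fdps* stood at 0.94 and 0.96 and *Cyp51* at 0.70 and 0.63. S and G2–M cells were not tested against each other. At 0 h, *Hmgcs1* averaged 66.9 ± 6.28 CPM in G0–G1, 76.6 ± 13.5 in S and 107 ± 23.7 in G2–M cells (SD, n = 9), and *Idi1* 50.1 ± 8.75, 113 ± 32.3 and 102 ± 25.8 CPM. Median UMIs per cell in these mice were 5290, 9393 and 10072.

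Because the phases differ and the treated mice at 48 h held few G0–G1 cells, the treatment was compared within each phase. At 48 h, 1 of the 8 genes passed in G0–G1 cells (*Fdps*, 0.41, adjusted p = 0.00963, where 4.8% of genes were called higher), 2 in S cells (*Fdps*, 0.33, adjusted p = 0.013, and *Idi1*, 0.38, adjusted p = 0.00504, with 5.47% called higher) and 1 in G2–M cells (*Idi1*, 0.28, adjusted p = 0.0288, with 9.74% called higher), all by edgeR. With library size as the only scaling, 0 passed in G2–M cells (1 at an unadjusted p under 0.05), and DESeq2 called 1 there. Estimates of the other genes within phases at 48 h lay between -0.07 and 0.38. At 72 h, 7 of the 8 passed in G0–G1 cells (4.48% called higher), 6 in S cells (2.55%) and 8 in G2–M cells (1.86%).

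Within G0–G1 cells at 72 h, *Fdps* had 59.8 to 93.2 CPM (median 73.2) in untreated and 113 to 142 CPM (median 133) in treated mice, with no overlap and a log2 fold change of 0.77 (SE 0.104, adjusted p = 1.25e-06, edgeR). *Cyp51* had 42.7 to 77.0 CPM (median 61.1) and 77.5 to 124 CPM (median 94.8) in the same cells, likewise without overlap (log2 fold change 0.70, adjusted p = 3.52e-05). *Fdft1* did not pass in G0–G1 cells (0.45, adjusted p = 0.0616), nor did *Idi1* (0.16, adjusted p = 0.478) and *Lss* (0.59, adjusted p = 0.0875) in S cells. The difference between the 2 times was tested within phases as well. It passed, with a smaller effect at 48 h, for 2 genes in G0–G1 cells (0.81% of genes called lower), 3 in S cells (3.41%) and 6 in G2–M cells (4.22%), and *Hmgcs1* and *Cyp51* were among them in each phase.

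**Figure D2:**
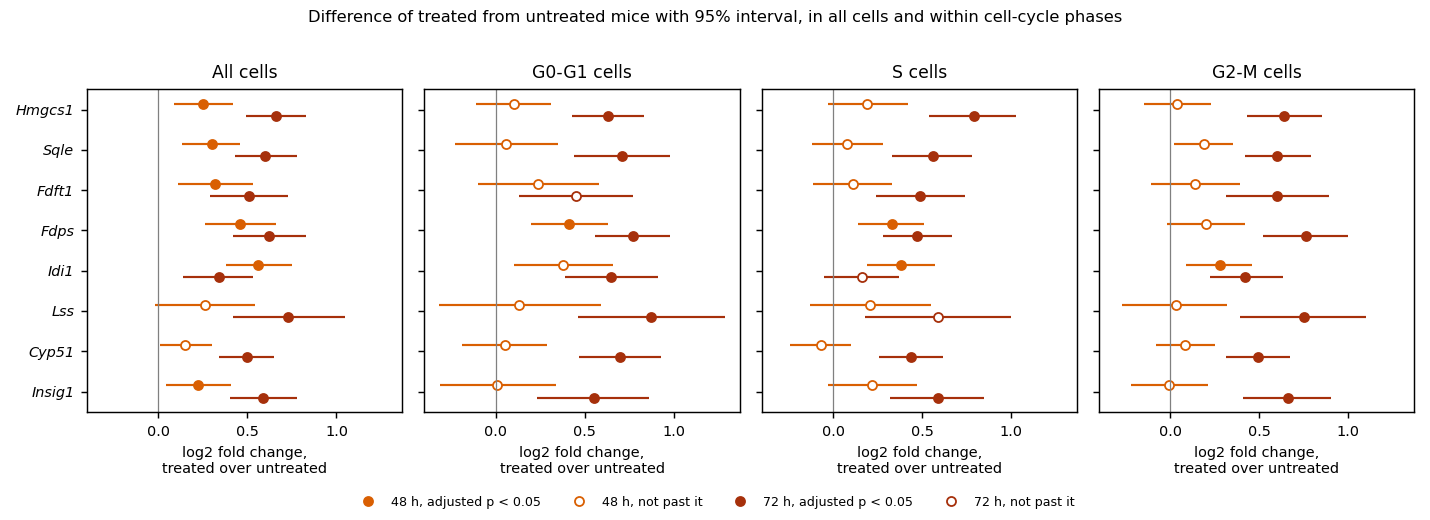
Log2 fold change of treated over untreated mice with its 95% interval (horizontal axis) for each of the 8 genes (vertical axis), in all cells and within G0–G1, S and G2–M cells. Filled points passed an adjusted p of 0.05 and open points did not; the points at 72 h lie to the right of those at 48 h for most genes within every phase, with 7, 6 and 8 genes filled at 72 h and 1, 2 and 1 at 48 h.

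CDK2hi and CDK2low cells of the same 7 treated mice were compared next. Each fraction was 1 library, so that fraction and library cannot be told apart, and the cells were not limited to those of the dark zone. CDK2hi cells held 16.0% ± 2.73 G0–G1 cells and CDK2low cells 57.8% ± 4.27 (SD, n = 7), with 11000 and 13400 UMIs per cell on average. All 8 genes were higher in CDK2hi cells, where 35.6% of all genes tested were called higher, with log2 fold changes from 0.31 (*Cyp51*) to 0.80 (*Fdps*). With library size as the only scaling each value was lower by 0.20 and all 8 still passed. The share of all genes called under that scaling is not given, so the count of 8 has no background there. Among the genes called, the share that were higher moved from 48.5% to 29.0%. In UMIs per cell, given without a test, 4 of the 8 had the lower mean in CDK2hi cells: *Hmgcs1* gave 1.18 in CDK2hi and 1.24 in CDK2low cells, *Sqle* 0.675 and 0.726, *Lss* 0.222 and 0.234, and *Cyp51* 1.30 and 1.48. *Fdps* (2.44 and 1.96), *Idi1* (1.34 and 1.13), *Fdft1* (0.622 and 0.556) and *Insig1* (0.552 and 0.512) had the higher mean there.

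*Fdps* had 246, 254, 235, 213, 223, 192 and 187 CPM in the CDK2hi cells of the 7 mice and 172, 163, 165, 121, 146, 129 and 118 CPM in their CDK2low cells, in the same order. It was the only one of the 8 whose fractions did not overlap, and its log2 fold change was 0.80 (SE 0.0311, adjusted p = 9.72e-18, edgeR with mouse as a block). *Idi1* had 136, 133, 137, 109, 115, 123 and 100 CPM in CDK2hi and 99.4, 90.5, 102, 61.4, 78.9, 84.6 and 71.6 CPM in CDK2low cells, higher in the CDK2hi cells of each mouse (log2 fold change 0.72, SE 0.0354, adjusted p = 1.34e-15). *Cyp51* showed the smallest difference, with 124, 127, 130, 101, 120, 115 and 114 CPM against 124, 107, 127, 105, 103, 107 and 100 CPM. In CPM, *Cyp51* was higher in CDK2hi cells of 5 of 7 mice, *Lss* of 6 and the other 6 genes of all 7. Over all genes, neither the number of mice nor the overlap of the fractions was counted.

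**Figure D3:**
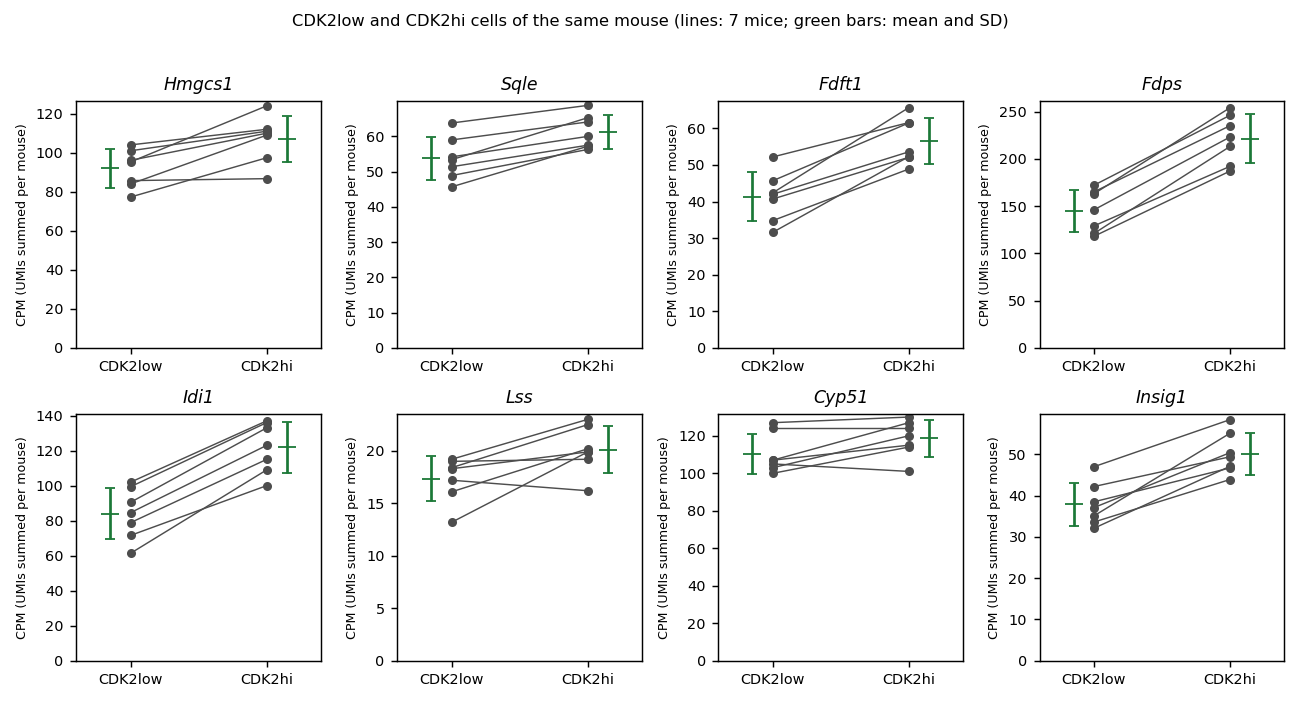
CPM of each of the 8 genes (vertical axis, from 0) in CDK2low and CDK2hi cells (horizontal axis), with a line for each of 7 mice and green bars for mean and SD. The lines rise in all 7 mice for *Fdps*, from 118 to 172 CPM in CDK2low cells to 187 to 254 CPM in CDK2hi cells, and are flattest for *Cyp51*.

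The CDK2 fractions were then compared within each phase. In G0–G1 cells, 3 of the 8 genes were higher in CDK2hi cells (30.0% of genes called higher): *Fdps* by 0.98 (SE 0.0551, adjusted p = 1.92e-21), *Idi1* by 1.02 (SE 0.0706, adjusted p = 5.45e-18) and *Fdft1* by 0.52 (SE 0.0921, adjusted p = 2.93e-06), all by edgeR. *Fdps* averaged 218 ± 25.8 CPM in the G0–G1 cells of the CDK2hi fraction and 116 ± 19.8 CPM in those of the CDK2low fraction (SD, n = 7). In S cells the same 3 genes were higher (28.6% called higher), by 0.35 for *Fdft1* to 0.58 for *Fdps*, while *Sqle* was lower (log2 fold change -0.17, adjusted p = 0.0132, with 32.5% called lower). With library size only, the same comparison in S cells gave 3 higher and 3 lower, with a median of -0.11. The genes called lower then were *Sqle* (-0.33, adjusted p = 1.13e-05), *Hmgcs1* (-0.25, adjusted p = 6.4e-05) and *Cyp51* (-0.15, adjusted p = 0.00731), and the share of calls that were higher among all genes went from 46.9% to 27.3%. In G2–M cells 7 genes were higher (25.5% called higher), from 0.31 for *Fdps* to 0.96 for *Insig1*, and *Idi1* did not pass (0.10, adjusted p = 0.28). In these cells 6 passed with library size only, and *Fdps* was at 0.13 (adjusted p = 0.0704). For S and G2–M cells, the share of all genes called with library size only is not given. The G2–M sums of the CDK2low fraction rested on 443 cells.

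Cells of untreated mice were also divided by *Myc*, a transcription factor induced in GC B cells that receive T cell help. Of the 8 genes, 7 were higher in cells with a *Myc* UMI (31.4% of genes called higher), from 0.17 for *Hmgcs1* (adjusted p = 0.0101) to 0.85 for *Idi1* (SE 0.0491, adjusted p = 3.53e-19, edgeR), and *Insig1* did not pass (0.06, adjusted p = 0.514). Scaled by library size only, 6 passed and *Hmgcs1* did not (0.11, adjusted p = 0.105). The share of calls that were higher among all genes then went from 47.9% to 40.0%, and the share of all genes called is not given. The 1709 cells with a *Myc* UMI had a median of 11594 UMIs and the 12461 cells without one 6074, so that deeper cells were more often positive. The part of depth and phase in this difference was not tested. *Idi1* and *Fdps* led in the S, CDK2hi and Myc-positive cells alike, as the plot of paired differences shows.

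**Figure D4:**
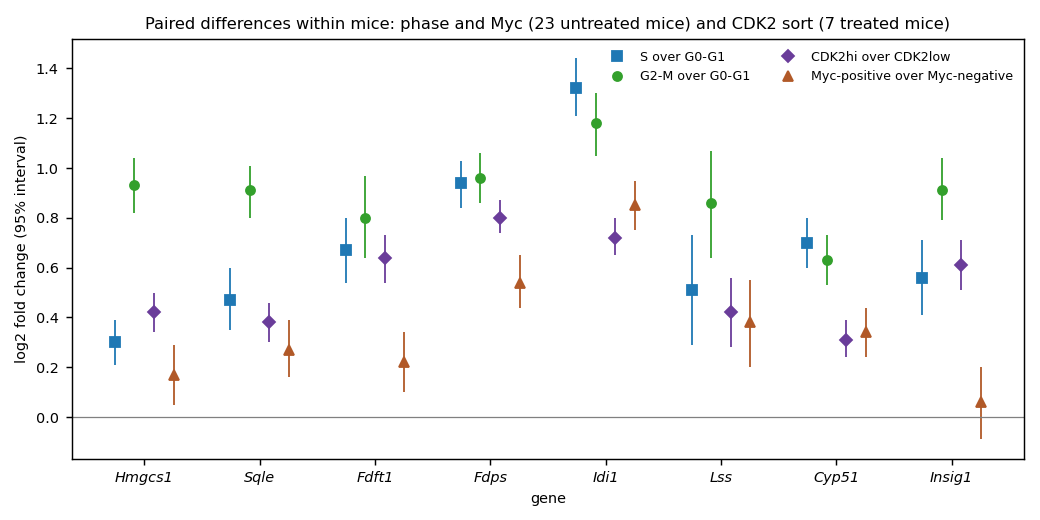
Log2 fold change with 95% interval (vertical axis) of the 8 genes (horizontal axis) in paired comparisons within mice: S over G0–G1 and G2–M over G0–G1 cells and Myc-positive over Myc-negative cells of 23 untreated mice, and CDK2hi over CDK2low cells of 7 treated mice. All points lie above 0; *Idi1* is highest in S cells, at 1.32, and *Insig1* lowest in Myc-positive cells, at 0.06.

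The earlier experiment was shallower, with means of 1890 to 2320 UMIs per cell. Its untreated mice at 10 days gave 211 to 1157 cells and 349784 to 2287359 UMIs per mouse. Its treated mice gave 1765 to 1958 cells and 3990006 to 4728692 UMIs. At 10 days, 2 of the 8 genes were higher in treated than in untreated mice, where 0.826% of genes were called higher. *Fdps* had 163, 137 and 111 CPM in untreated and 195, 192 and 206 CPM in treated mice (log2 fold change 0.48, SE 0.0931, adjusted p = 0.00228, edgeR), and *Hmgcs1* had 52.7, 68.6 and 40.0 against 80.0, 86.0 and 79.1 CPM (0.44, SE 0.12, adjusted p = 0.0489). The groups did not overlap for either gene, and overlap was not counted over all genes. The call of *Hmgcs1* held in 3 of 13 alternatives (adjusted p from 0.0154 to 0.269) and that of *Fdps* in 12 of 13 (1.54e-05 to 0.179), the exception being without untreated M5. DESeq2 gave *Hmgcs1* an adjusted p of 0.186. The other 6 had estimates between 0.11 and 0.42, and treated cells alone had been sorted for low mCherry, so that sort and treatment cannot be told apart.

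Across the 39 mice of the time course, the levels of the 8 genes were correlated. Pearson's r of their log2 CPM, centred within each experiment, ranged from 0.63 (*Idi1* and *Insig1*) to 0.91 (*Fdps* and *Idi1*) over 28 pairs, with a median of 0.81. The mean of the 8 standardized levels had r = -0.50 with the share of G0–G1 cells. The 10 genes most like this mean included the sterol enzymes *Msmo1* (r = 0.89) and *Nsdhl* (0.82), the fatty acid desaturase *Fads2* (0.87), and *Bfsp2*, *Palm*, *Vdac2* (0.84 each) and *D8Ertd738e* (0.83). The mice share libraries and groups, so these values are a description. Of the other 14 mevalonate and sterol enzymes, 6 were among the 100 most alike of 10262 genes. So were 3 of 12 genes of fatty acid synthesis and 1 of 10 of uptake and intracellular transport. None was among them of 9 genes of the prenyl and dolichol branch, 6 of SREBP control and 6 of efflux and esterification.

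Of 14 other mevalonate and sterol enzymes, 8 were higher and 0 lower in treated mice at 72 h (4.9% and 3.76% of all genes), with a median log2 fold change of 0.27. *Msmo1*, a sterol C4 demethylase, rose by 0.79 (SE 0.0982, adjusted p = 3.67e-07, edgeR) from 50.9 ± 10.1 to 87.4 ± 14.4 CPM. *Lbr*, a sterol reductase that also anchors heterochromatin to the nuclear lamina, did not pass (0.11, adjusted p = 0.115). At 48 h, 6 of the 14 were higher and 0 lower (3 and 0 with library size only), where 24.8% of all genes were called higher and 22.5% lower. In CDK2hi cells 11 were higher and 0 lower (8 and 1 with library size only), against 35.6% and 37.8% of all genes. *Nsdhl* changed sign between the scalings, from 0.17 to -0.03, and did not pass with library size only. *Lbr* was higher in CDK2hi cells by 0.66 (SE 0.0299, adjusted p = 3.13e-16, edgeR).

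In the branch to prenyl groups and dolichol, 0 of 9 genes were called at 72 h by edgeR or DESeq2 (3 and 2 at an unadjusted p under 0.05, respectively), and the median was 0.00. *Ggps1*, which makes geranylgeranyl pyrophosphate, was lower in treated mice at 48 h (log2 fold change -0.35, SE 0.0711, adjusted p = 9.05e-05, edgeR) and in CDK2hi cells (-0.48, SE 0.0393, adjusted p = 3.93e-11). At 48 h 2 genes of this branch were higher and 1 lower (24.8% and 22.5% of all genes), and with library size only 0 and 1. In CDK2hi cells 5 were higher and 3 lower (35.6% and 37.8% of all genes), and with library size only 2 and 4, where *Fnta*, *Dhdds* and *Coq2* changed sign. They were then at -0.04, -0.04 and -0.03, and none of them passed. *Fnta*, a subunit of the prenyl transferases, was at 0.16 at 48 h (adjusted p = 0.00804) and 0.14 at 72 h (adjusted p = 0.108), and *Pggt1b*, a geranylgeranyl transferase subunit, at -0.02 and -0.11 without passing.

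Of 6 genes that control SREBP, *Srebf2*, which encodes the factor itself, was the only one called at 72 h (4.9% of all genes called higher). It was higher by 0.29 (SE 0.0502, adjusted p = 0.000123, edgeR) in treated mice, at 153 ± 17.4 against 124 ± 10.3 CPM. At 48 h *Srebf2* was lower (-0.15, adjusted p = 0.0108), at 115 ± 5.6 against 133 ± 11.9 CPM, and 4 of the 6 genes were lower (22.5% of all genes called lower), among them *Mbtps1*, a protease that cuts SREBP (-0.21, adjusted p = 0.0101). The difference of *Srebf2* was opposite in sign to the estimates of the 8 genes at 48 h and had the same sign at 72 h. With library size only, 4 of the 6 genes were lower at 48 h in all cells. Within G0–G1, S and G2–M cells, that scaling gave 0, 1 and 0 lower. With the scaling used elsewhere, 4.55%, 5.89% and 7.56% of all genes were called lower in these phases. *Srebf1* did not pass at either time (0.00 and 0.17) and was higher in CDK2hi cells by 0.37 (adjusted p = 8.32e-08). There 1 of the 6 genes was higher and 3 were lower (35.6% and 37.8% of all genes), and 1 and 5 with library size only.

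Among 10 genes of uptake and intracellular transport, 3 were higher and 0 lower at 48 h (24.8% and 22.5% of all genes) and 2 and 0 at 72 h (4.9% and 3.76%). *Stard4*, a carrier of cholesterol between membranes, was higher by 0.26 at 48 h, by 0.31 at 72 h and by 0.46 in CDK2hi cells. With library size only, 3 of the 10 were higher and 3 lower at 48 h, against 3 and 0. *Npc2* and *Osbp*, which work in lysosomal export and at membrane contacts, did not pass at 48 h or 72 h. In CDK2hi cells 3 of the 10 genes were higher and 4 lower (3 and 6 with library size only), against 35.6% and 37.8% of all genes.

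Among genes of efflux, esterification and oxysterol signalling, all 6 of the 10 that passed the filter on low counts were lower in treated mice at 48 h (22.5% of all genes called lower) with a median of -0.52. *Mylip*, a ubiquitin ligase induced by oxysterol receptors, averaged 33.2 ± 3.42 CPM in treated and 53.4 ± 4.64 CPM in untreated mice (log2 fold change -0.61, SE 0.0846, adjusted p = 1.77e-07, edgeR). *Soat1*, which esterifies cholesterol for storage, was lower (-0.42, adjusted p = 6.34e-05), as was the oxysterol receptor *Nr1h2* (-0.18, adjusted p = 0.0212). At 72 h 1 of the 6 was lower (3.76% of all genes called lower), the exporter *Abcg1* (-1.0, SE 0.315, adjusted p = 0.0371), and the median was 0.01. All 6 were lower in CDK2hi cells (37.8% called lower), with a median of -0.83. Within phases at 48 h, 2 of 6 were lower in G0–G1 cells (4.55% of all genes called lower), 0 of 4 in S cells (5.89%) and 1 of 4 in G2–M cells (7.56%). Between the CDK2 fractions all 6 were lower within G0–G1 cells (30.3% called lower) and within S cells (32.5%), whereas within G2–M cells 2 of 5 were called higher and 1 lower (25.5% and 23.7% of all genes), and 0 and 2 with library size only.

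Fatty acid synthesis shares its acetyl-CoA with the pathway. Of 12 genes tested, 5 were higher and 1 lower at 48 h (24.8% and 22.5% of all genes), 4 and 0 at 72 h (4.9% and 3.76%), and 7 and 4 in CDK2hi cells (35.6% and 37.8%). With library size only, the counts were 5 and 2 at 48 h and 5 and 5 in CDK2hi cells. *Acly*, which supplies acetyl-CoA to both pathways, lay within 0.06 of 0 at 48 h, at 72 h and between the CDK2 fractions without passing, and was higher in S than in G0–G1 cells of untreated mice (0.14, adjusted p = 0.0105). The desaturase *Scd1* was lower at 48 h (-0.38, adjusted p = 1.18e-05, edgeR), and *Scd2* was higher at 72 h by 0.64 (SE 0.134, adjusted p = 0.00146), at means of 63.2 against 40.1 CPM. The lists were chosen with earlier results of these data known, and their counts are given beside those of all genes as a description. With library size only, 18.4% of all genes were called higher at 48 h and 48.5% in either direction. Between CDK2 fractions, the share of all genes called with library size only is not given.

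**Figure D5:**
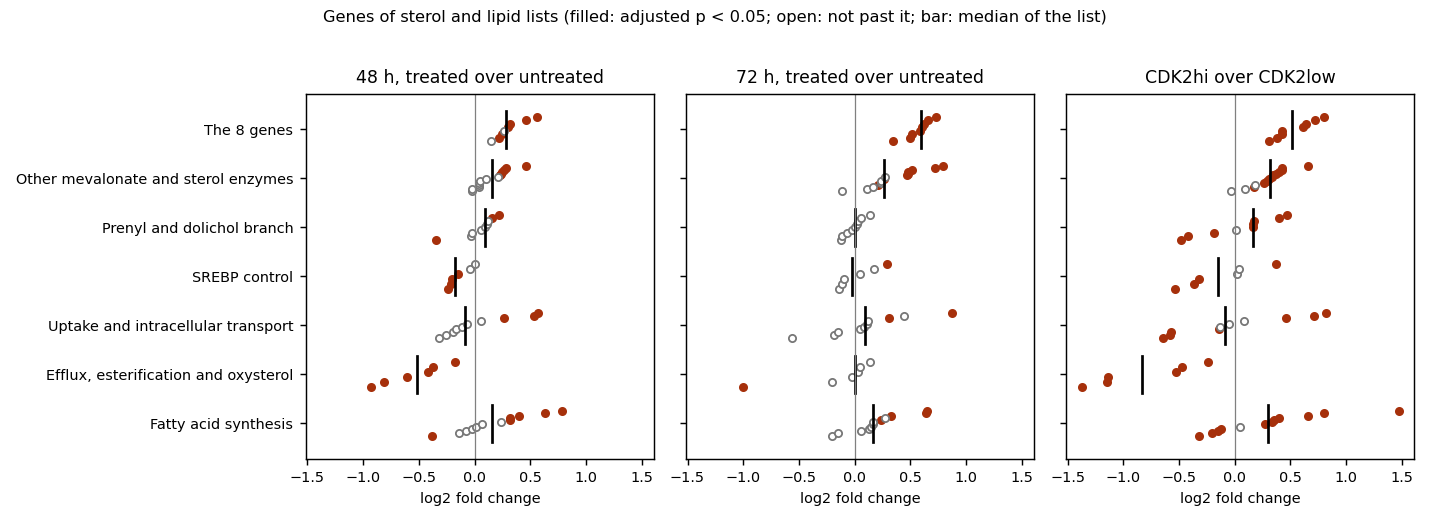
Log2 fold change (horizontal axis) of every tested gene in the 8 genes and 6 lists of sterol and lipid genes (vertical axis), for treated over untreated mice at 48 h and 72 h and for CDK2hi over CDK2low cells. Filled points passed an adjusted p of 0.05, open points did not, and bars are list medians; the 8 genes lie to the right of 0 in all 3 comparisons, while efflux genes lie to the left at 48 h and in CDK2hi cells.

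Marker sums also differed between some of these groups, and are given without a test. The 9 GC B cell markers averaged 4130 CPM in treated and 4980 CPM in untreated mice at 48 h, 5110 and 5150 CPM at 72 h, and 3720 CPM in CDK2hi and 4960 CPM in CDK2low cells. Most of the sum in the time course was *Cd79a* (947 to 2600 CPM) and *Ms4a1* (1120 to 1960 CPM). The T cell markers summed to 53.4 to 64.3 CPM in CDK2hi and 138 to 202 CPM in CDK2low cells, without overlap, and to 52.2 to 89.9 CPM in treated and 68.2 to 129 CPM in untreated mice at 48 h. At 72 h they summed to 63.4 to 129 and 67.8 to 129 CPM. In the earlier experiment at 10 days they summed to 69.8 to 81.5 CPM in treated and 114 to 128 CPM in untreated mice, and the plasma cell markers to 1150 to 1660 and 959 to 1030 CPM, both without overlap. Of the T cell markers, *Cd2* alone had 52.8 to 154 CPM in the CDK2 sort and 69.3 to 129 CPM in the earlier experiment. *Cd3d* reached at most 18.4 and 3.06 CPM there. The 6 markers of naive or memory B cells summed to 98.7 to 201 CPM in treated and 247 to 426 CPM in untreated mice at 48 h, to 198 to 328 and 229 to 452 CPM at 72 h, and to means of 148 CPM in CDK2hi and 420 CPM in CDK2low cells. Plasma cell markers summed to 1190 to 2000 and 774 to 1510 CPM at 48 h and to 893 to 1250 and 1040 to 1440 CPM at 72 h. Most of these sums was *Jchain*, at 673 to 2360 CPM in the time course and 807 to 1490 CPM in the earlier experiment. *Sdc1* reached at most 9.04 and 2.75 CPM in these experiments and *Prdm1* at most 16.1 and 3.91 CPM. The macrophage and dendritic cell markers summed to 4.21 to 6.53 CPM in CDK2hi and 8.0 to 23.8 CPM in CDK2low cells, without overlap. In the earlier experiment at 10 days they summed to 6.34 to 7.62 CPM in treated and 8.58 to 64.7 CPM in untreated mice. The part of all these markers in the differences of the 8 genes was not tested.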

How the data were processed

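Gene expression was measured in GC B cells on the 10X Genomics 5′ platform, with the mice of a pool marked by hashtag antibodies. The deposited values are raw UMI counts, 1 matrix of genes by cells for each library, which the authors obtained from CellRanger without normalization. The submitters' processing notes name Cell Ranger 6.0.1, Seurat 5.1.0 and the build mm39, and the versions in the file headers differ from those notes. The hashtags and group of each mouse came from the list that the authors deposited, where days 7, 9 and 10 were read as 0, 48 and 72 h after treatment.

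Cells were assigned to mice with HTODemux in Seurat 5.3.0 (positive quantile 0.99). A cell positive for 2 or more mice was dropped, which was the only step against doublets. Cells needed at least 200 genes and at most 10% mitochondrial UMIs. Phases were called with CellCycleScoring (43 S and 54 G2–M genes). UMI counts were summed per mouse, and the mouse was the replicate. Tests used edgeR 4.0.16 in R 4.3.3 (filterByExpr, TMM, quasi-likelihood test, two-sided, Benjamini-Hochberg adjustment over all genes tested, threshold 0.05), with a term for the experiment in the time course and with mouse as a block where cells of the same mouse were compared. Pairs were taken from the mouse names in the deposited list. Sums over a phase needed 20 cells per mouse and sums by *Myc* 10. DESeq2 1.42.0 was an alternative, and the closing section gives the effect of the others. The edgeR fit of the time course was tried on simulated counts with differences set at 48 h, and the other steps were not simulated. Python 3.11.15 with pandas 2.3.3, numpy 2.4.6, scipy 1.17.1 and matplotlib 3.10.9 made the tables and plots.

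Libraries shared 0 to 94 cell barcodes. The named genes were the 8 genes, the 3 genes with the highest mean CPM of each list and the 10 genes most like the 8 over mice, with a log2(CPM + 1) scale for likeness. *Abcg1* was also named, after its values were seen, as were the genes whose sign turned. Values of some genes that this rule names are not reported here. The 8 genes and the lists were chosen with earlier results of these data known. Sequences came from RefSeq (GRCm38.p6).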

Additional observations from a re-analysis of the deposited data

Results flagged for a closer look

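Of 56 groups of 4 to 10 mice examined, 1 held a mouse apart from the others by Dixon's criterion, where chance alone gives about 1 in 20 groups. It was the highest of 6 untreated mice at 48 h for *Fdps*, at 172 CPM, with a gap of 0.65 of the range of the group.

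The treatment effect differed between 48 h and 72 h by edgeR's test of the difference itself for 4 of the 8 genes in all cells, with the effect at 48 h minus that at 72 h at -0.40 for *Hmgcs1*, -0.31 for *Sqle*, -0.34 for *Cyp51* and -0.37 for *Insig1*. Within G0–G1 cells it differed for *Hmgcs1* (-0.53, adjusted p = 0.0298) and *Cyp51* (-0.66, adjusted p = 0.0166). Within S cells the values were -0.59 for *Hmgcs1*, -0.47 for *Sqle* and -0.51 for *Cyp51*. Within G2–M cells they were -0.60 for *Hmgcs1*, -0.42 for *Sqle*, -0.56 for *Fdps*, -0.72 for *Lss*, -0.41 for *Cyp51* and -0.66 for *Insig1*. In each case the effect was smaller at 48 h, in the 4 groups of 30 mice.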

How the results depend on the processing

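The 72 h difference of the 8 genes kept its direction in each alternative tried. The number of the 8 that passed at 72 h was 0 in the smaller experiment alone (8 in the full fit). At 48 h it was 3 without a term for the experiment, 3 in the larger experiment alone, 2 in the smaller alone and 2 with B1-8hi pairing only (6 in the full fit). Between treated mice at 48 h and 72 h it was 2 with library size only, 1 higher and 1 lower at 48 h. It was also 2 in a fit of only the groups compared and 2 in the smaller experiment alone (1 in the full fit). Treated mice at 48 h against 0 h gave 5 in the smaller experiment alone (8), and untreated mice at 72 h against 0 h gave 1 in the larger alone (0). For the difference between the effects at 48 h and 72 h it was 0 without a term for the experiment, 1 in the smaller experiment alone and 2 with each cell weighted equally (4). Within G2–M cells at 48 h, library size only gave 0 (1). In the first experiment, DESeq2, library size only and no filter on cells each gave 1 (2), and leaving out each mouse gave 1 to 2, with 1 in 7 of the 9 cases, those without M1 or M3 at day 7, M5 or M6 at day 10 untreated, or M7, M8 or M10 at day 10 treated. The call lost was that of *Hmgcs1*, except without M5, where it was that of *Fdps*, and *Hmgcs1* was also lost without M4, where the count stayed at 2.

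Counts over all genes moved by over 1.5 times mainly with the experiments. At 48 h 4855 genes passed, with 2680 without a term for the experiment and 2149 in the smaller alone, and at 72 h 889, with 217 and 22. Treated mice at 48 h against 72 h gave 5025 genes, with 3104 and 2661, and the difference of effects 3223, with 1222, 768 and, with B1-8hi pairing only, 1927. Treated mice at 48 h against 0 h gave 5308 and 3338 without that term. Untreated mice at 72 h against 0 h gave 406, with 77 without that term, 256 in a fit of only the groups compared and 3 in the smaller experiment. Untreated mice at 48 h against 0 h gave 14, with 25 by DESeq2, 31 with each cell weighted equally, 5 without that term, 5 with B1-8hi pairing only and 0 in the smaller experiment. The first experiment gave 177, with 100 by DESeq2, 279 with no filter on low counts, 55 without untreated M5 and 105 without untreated M4.

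With library size only, the share of calls that were higher went from 52.4% to 37.9% at 48 h, from 50.7% to 34.3% between treated mice at 48 h and 72 h, from 50.3% to 35.4% for treated mice at 48 h against 0 h and from 54.0% to 37.7% for the difference of effects. Within phases at 48 h it went from 48.1% to 35.1% in S and from 56.3% to 38.3% in G2–M cells, and between CDK2 fractions from 49.7% to 39.3% in G0–G1, 46.9% to 27.3% in S and 51.8% to 27.5% in G2–M cells. For the difference of effects it went from 42.3% to 30.7% in S and from 57.4% to 37.5% in G2–M cells.

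Without the replicate block, that is without the pairing by mouse, 8 of the 8 genes still passed between CDK2hi and CDK2low cells and between G2–M and G0–G1 cells, and the block changed no other count of the 8 by over 1.5 times. *Cyp51* between CDK2 fractions within S cells turned from 0.01 to -0.15 with library size only (adjusted p = 0.00731). The causes of these changes were not tested, and some of the alternatives also leave out mice or cells. In all, 24 counts of the 8 genes moved and 109 stayed within 1.5 times. In the alternatives by scaling, the median of all genes between CDK2 fractions went from -0.03 to -0.23.

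Depth limits *Lss* most, at 7.03 CPM in its lowest untreated mouse at 72 h. Each experiment and each CDK2 fraction was 1 library.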
